A study of Mus musculus with 9 samples.

Results

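The difference that the CCR10 reporter gate makes to skin innate lymphoid cells (ILCs) was compared between Rag1-sufficient and Rag1-/- mice. All 9 of the 9 arrays of the series entered. For each probe set the gate effect was taken in each genotype as the log2 level in GFP+ cells minus that in GFP- cells, and the interaction as the gate effect in Rag1-/- mice minus the gate effect in Rag1-sufficient mice. A positive interaction therefore means a gate effect that lies higher in Rag1-/- mice, and a negative one a gate effect that lies lower there. The members are all features of the array: 17445 probe sets were tested, which named 13924 genes.

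Every mouse was female and carried the CCR10+/EGFP allele, so that EGFP reports Ccr10 from 1 of the gene's alleles. The Rag1-sufficient groups were GFP+ and GFP- cells of CCR10+/EGFP mice with 2 arrays each. The Rag1-/- groups were GFP+ cells with 2 arrays and GFP- cells with 3 arrays, from Rag1-/-CCR10+/EGFP mice. Cells were sorted from skin as CD45.2+ events without CD3 or the lineage markers CD5, CD11b, B220, 7-4, Gr-1 and Ter-119, which leaves mast cells ungated. Ages were not given, and nothing said that replicates came from separate mice, so each p-value reflects only how far these samples scatter, and that scatter may be technical.

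ILCs are lymphocytes without rearranged antigen receptors. Group 2 ILCs are the main type in mouse skin and make IL-5 and IL-13, and group 1 and group 3 ILCs make interferon gamma and IL-17. CCR10 is a chemokine receptor for skin homing, and RAG1 is the recombinase subunit that B and T cells need to assemble their receptors. Mice without it lack both of these cell types and have ILCs.

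The arrays of a group did not repeat each other equally well. The median SD over probe sets was 0.085 and 0.065 on the log2 scale in Rag1-sufficient GFP+ and GFP- cells, and 0.140 and 0.134 in Rag1-/- GFP+ and GFP- cells. In 1827 of the tested probe sets all arrays of at least 1 group held exactly equal values, which lowers the spread and the standard errors there. Rag1-/- GFP+ replicates 1 and 2 differed in cell type markers: Cpa3, a mast cell protease, was at 2085 in replicate 1 and 19.9 in replicate 2, whereas Nkg7, a cytotoxic granule protein, was at 1455 and 4575. Where leaving out 1 array moved the interaction of a named gene by more than 1.5 times, the values without it are given beside the gene or with the alternatives at the end. Ccr10 itself, measured at 163 and 130 in Rag1-sufficient GFP+, 129 and 126 in GFP-, 148 and 96.5 in Rag1-/- GFP+ and 103, 125 and 109 in GFP- cells, had an interaction of -0.10 ± 0.27 (SE). The GFP+ and GFP- arrays overlapped in Rag1-/- mice, and in Rag1-sufficient mice they were 130 against 129 at the nearest. The interaction was -0.41 without Rag1-/- GFP+ replicate 1 and 0.21 without replicate 2. Rag1 was under the filter on low values, at 28.4 to 31.4 on all 9 arrays, and checks no label here.

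No probe set passed an adjusted p of 0.05 for the interaction (limma with Benjamini-Hochberg adjustment over 17445), a background of 0%, and the smallest adjusted p was 0.0723. At an unadjusted p under 0.05 there were 2378 probe sets, 13.6% of those tested: 659 (3.78%) with a higher gate effect in Rag1-/- mice and 1719 (9.85%) with a lower one. The interaction passed 1 on the log2 scale in either direction for 601 probe sets (3.45%). Of the 13924 genes, read from 1 probe set each, 3.53% were higher and 9.63% lower at an unadjusted p under 0.05. Positive interactions were found for 48.2% and negative ones for 51.8%. These shares are the background of all gene list counts below. The 4 array pair differences of Rag1-sufficient mice and the 6 of Rag1-/- mice did not overlap for 4167 (23.9%), with Rag1-/- mice above for 1401 (8.03%) and below for 2766 (15.9%). Scaling each array to its 75th percentile moved the median interaction over all probe sets from -0.01 to 0.12 and made the split 1246 higher and 1214 lower, and quantile normalization made it 941 and 1336, so the excess of lower interactions depends on the scaling. Rag1-/- GFP+ replicate 2 decides the number of calls: without it 500 probe sets passed, 92 higher and 408 lower, with 1 array then standing for that group and assumed to vary like the others.

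The gate effects themselves showed little correlation over all probe sets. Over 17445 probe sets on the same 9 arrays it was -0.10, and it lay between -0.25 and 0.17 when single arrays were left out. Noise in either gate effect moves such a value toward 0, and the median SE of the interaction was 0.20. The gate effects spread more widely in Rag1-sufficient mice, with an SD of 0.32 against 0.23 in Rag1-/- mice. There 1715 probe sets (9.83%) passed 0.5 in size, against 722 (4.14%) in Rag1-/- mice. In both genotypes 90 probe sets (0.516%) passed 0.5 in the same direction, and 146 (0.837%) did so in opposite directions. The numbers that unrelated gate effects would give were not computed. Within Rag1-sufficient mice 140 probe sets (0.803%) passed the adjusted threshold for the gate effect, 58 higher and 82 lower in GFP+ cells, and within Rag1-/- mice none did in the same limma fit, where 1098 (6.29%) had an unadjusted p under 0.05. That contrast of counts is no test of a difference, which the interaction gives.

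**Figure D1:**
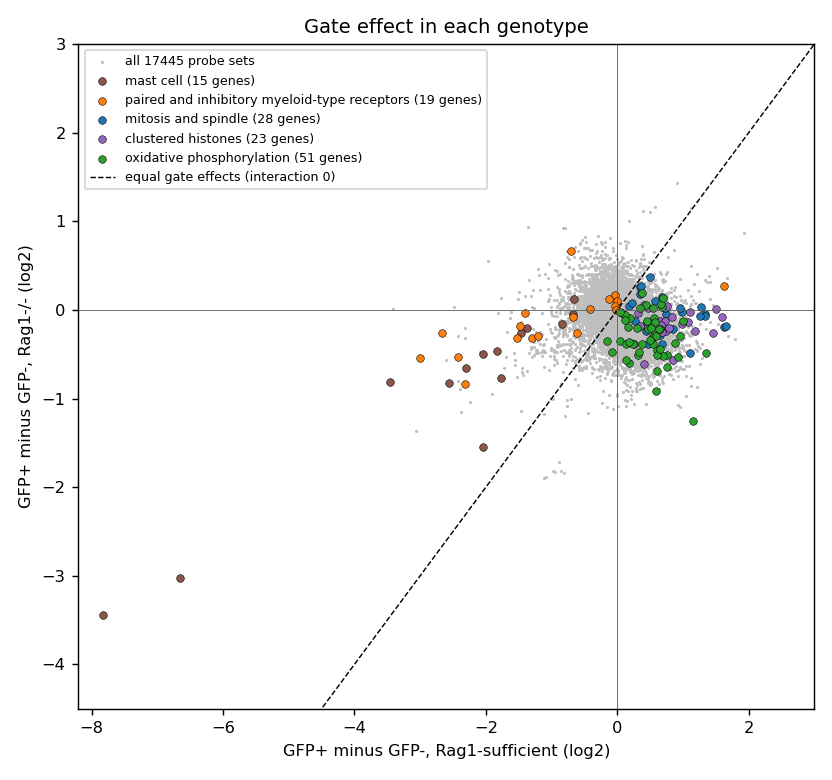
Gate effect of each of 17445 probe sets in Rag1-sufficient mice (horizontal axis, log2) against Rag1-/- mice (vertical axis, log2), with members of 5 gene lists coloured. Genes on the dashed line have an interaction of 0; mast cell and paired receptor genes lie above it at the left, and mitosis, histone and oxidative phosphorylation genes lie below it at the right.

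Where 1 group carried an interaction, it was a Rag1-sufficient group more often than a Rag1-/- one. A group was said to stand apart when its mean was farthest from the other 3 group means and none of its arrays lay within the range of the other arrays. Tight groups and groups of 2 arrays meet this more readily. The median SD was 0.085 and 0.065 in the Rag1-sufficient groups against 0.140 and 0.134 in the Rag1-/- groups. The part of spread and array number in the counts was not tested. A group that stands apart also gives an interaction by itself. Shares above those of all tested therefore follow in part from choosing probe sets by the interaction. Of the 2378 probe sets with an unadjusted p under 0.05, a Rag1-sufficient group stood apart in 1191 (50.1%, against 19.0% of all tested) and a Rag1-/- group in 226 (9.50%, against 6.43%), and no group did in 961 (40.4%, against 74.6%). For the 659 higher interactions a Rag1-sufficient group stood apart in 418 (63.4%), and for the 1719 lower ones in 773 (45%), with no group apart in 800 (46.5%). Of the 2378, Rag1-sufficient GFP- cells were the higher ones for 328 (13.8%) and the lower ones for 410 (17.2%), against 5.81% and 5.42% of all tested. GFP+ cells of these mice were higher for 363 (15.3%) and lower for 90 (3.78%), against 4.91% and 2.82%. The 32 probe sets that shared the smallest adjusted p all had the larger gate effect in Rag1-sufficient mice, 26 of them with GFP+ cells of these mice above all other groups.

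Several of the leading positive interactions were of myeloid-type signalling genes that were highest in Rag1-sufficient GFP- cells. In Rag1-/- GFP- cells these were lower, near the remaining arrays for Cd33 and in between for Pilrb1. Plek encodes pleckstrin, a protein kinase C substrate of platelets and leukocytes. Its intensity was 394 and 471 in Rag1-sufficient GFP-, 69.6 and 64.0 in GFP+, 142 and 116 in Rag1-/- GFP+ and 170, 130 and 166 in Rag1-/- GFP- cells. Rag1-sufficient GFP- cells were above every other array, and Rag1-sufficient GFP+ cells below. The gate effect was -2.67 ± 0.17 (SE) in Rag1-sufficient and -0.26 ± 0.16 in Rag1-/- mice, and the interaction of 2.41 ± 0.24 had a limma adjusted p of 0.0723. Plek passed the threshold when arrays were scaled to the 75th percentile, when they were quantile normalized, when the lowest 50% of probe sets were left out, with array weights and without Rag1-/- GFP+ replicate 2.

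Cd33, a sialic acid-binding inhibitory receptor of myeloid cells, followed the same order. It was at 122 and 113 in Rag1-sufficient GFP- cells, 41.1 and 41.8 in GFP+ cells, 48.6 and 45.7 in Rag1-/- GFP+ cells and 59.5, 54.0 and 47.7 in Rag1-/- GFP- cells. Only the first group lay apart from the rest, and the interaction was 1.30 ± 0.15 with a limma adjusted p of 0.0723. Pilrb1 and Pilrb2, activating members of the paired immunoglobulin-like type 2 receptors, had interactions of 0.98 ± 0.12 and 1.21 ± 0.23. Pilrb2 was at 84.4 and 71 in Rag1-sufficient GFP- cells and between 25 and 43.8 elsewhere, near or under the filter limit of 41.6. That group alone brought Pilrb2 past the filter. Pilrb1 was at 118 and 123 in Rag1-sufficient GFP- and 46.9 and 49.5 in GFP+ cells, with the Rag1-/- arrays in between, at 66.8 and 75 in GFP+ and 89.6, 86.9 and 89.5 in GFP- cells. Here the gate effect had the same sign in both genotypes, -1.30 and -0.32, and differed in size. Probe sets of near-identical genes, such as Pilrb1 and Pilrb2, may share signal.

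Of the 19 tested genes of the list of paired and inhibitory receptors and their adaptors, 13 had a higher interaction at an unadjusted p under 0.05 and 1 a lower one, beside 3.53% and 9.63% of all 13924 genes; none passed the adjusted threshold. The median interaction was 0.92, against -0.01 over all genes, and the median gate effect was -0.71 in Rag1-sufficient and -0.08 in Rag1-/- mice. Plek is in this list and is no receptor. Lilr4b, an inhibitory immunoglobulin-like receptor, and Tyrobp, the adaptor that carries the signal of activating receptors, were picked from it after their values were seen. Lilr4b was at 427 and 458 in Rag1-sufficient GFP- cells, at 54.4 on both GFP+ arrays, at 202 and 105 in Rag1-/- GFP+ cells and at 345, 160 and 175 in Rag1-/- GFP- cells, and its interaction was 2.46 ± 0.52. Tyrobp was lowest in Rag1-sufficient GFP+ cells, at 79.2 and 75.5, and lay between 144 and 239 on every other array, with an interaction of 1.38 ± 0.29. Fcer1g, the common Fc receptor gamma chain, had 1.38 ± 0.52 (1.89 and 0.87 without Rag1-/- GFP+ replicate 1 and 2), and its array pair differences overlapped between genotypes. The member with the opposite sign was Clec12a, an inhibitory C-type lectin, also picked after its values were seen. It was at 165 and 97.6 in Rag1-sufficient GFP+ cells and between 26.9 and 43.8 elsewhere, near or under the filter limit of 41.6. Its interaction was -1.36 ± 0.33. Because these are bulk samples, fewer cells of a type and less RNA per cell cannot be told apart.

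Several other genes with the smallest p in this direction shared the peak in Rag1-sufficient GFP- cells. Stard13 was at 63.3 and 66 there and between 35.9 and 41.7 on the other arrays, near or under the filter limit of 41.6 (0.81 ± 0.11). Xcr1, a chemokine receptor of cross-presenting dendritic cells, was at 68.2 and 65.0 there and between 38.2 and 42.9 on the other arrays. Its interaction was 0.85 ± 0.10. The other arrays lay near the filter limit of 41.6, and that group alone brought it past the filter. Prkcb, a protein kinase C isoform, was at 169 and 173 there and between 70.0 and 115 elsewhere (0.99 ± 0.16), and the kinase gene Lrrk2 at 108 and 103 against 46.1 to 57.1 (0.88 ± 0.14). Csf2rb, the shared beta chain of the IL-3, IL-5 and GM-CSF receptors, was at 151 and 154 there and between 45.3 and 69.0 elsewhere (1.23 ± 0.21). Spry2, a feedback inhibitor of receptor tyrosine kinase signalling, had another shape: it was at 63.6 and 64.9 in Rag1-sufficient GFP+ cells and between 93.0 and 113 on all other arrays, and its gate effects were opposite in sign, -0.57 and 0.21 (interaction 0.78 ± 0.12).

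Markers of dendritic cells and macrophages were looked at beside these genes. Of all genes 3.53% were higher and 9.63% lower at an unadjusted p under 0.05. Of 13 tested dendritic and Langerhans cell genes 2 had an unadjusted p under 0.05, both higher, and the summed intensity of the markers was 9776 to 9917 in Rag1-sufficient GFP+, 9925 to 10009 in GFP-, 8899 to 10435 in Rag1-/- GFP+ and 9720 to 10049 in GFP- cells. Id2, which ILCs need too, and the chemokine receptor gene Ccr7 gave 7741 to 9104 of that sum. Without both, a choice made after their values were seen, it was 1274 to 1289 in Rag1-sufficient GFP+ and 1580 to 1606 in GFP- cells. In Rag1-/- mice it was then 1158 to 1331 in GFP+ and 1234 to 1423 in GFP- cells. Only without both did Rag1-sufficient GFP- cells lie above all other arrays, and that sum includes Xcr1. The 17 macrophage and monocyte markers summed to 1232 in Rag1-sufficient GFP+ and 1430 to 1465 in GFP- cells. In Rag1-/- mice they summed to 1207 to 1233 in GFP+ and 1192 to 1363 in GFP- cells. Of 12 macrophage and monocyte genes 3 were higher and none lower, among them the lysosomal protein gene Cd68 (0.88 ± 0.22) and the transcription factor gene Spi1, which was at 122 and 130 in Rag1-sufficient GFP- cells and at 54.0 to 85.8 elsewhere (0.76 ± 0.27, and 0.44 without Rag1-/- GFP+ replicate 1). The count of higher genes was 1 for each of these lists without Rag1-sufficient GFP+ replicate 2 or GFP- replicate 2, and 4 dendritic cell genes were higher without Rag1-/- GFP+ replicate 2. The part of these cells in the receptor genes was not tested.

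**Figure D2:**
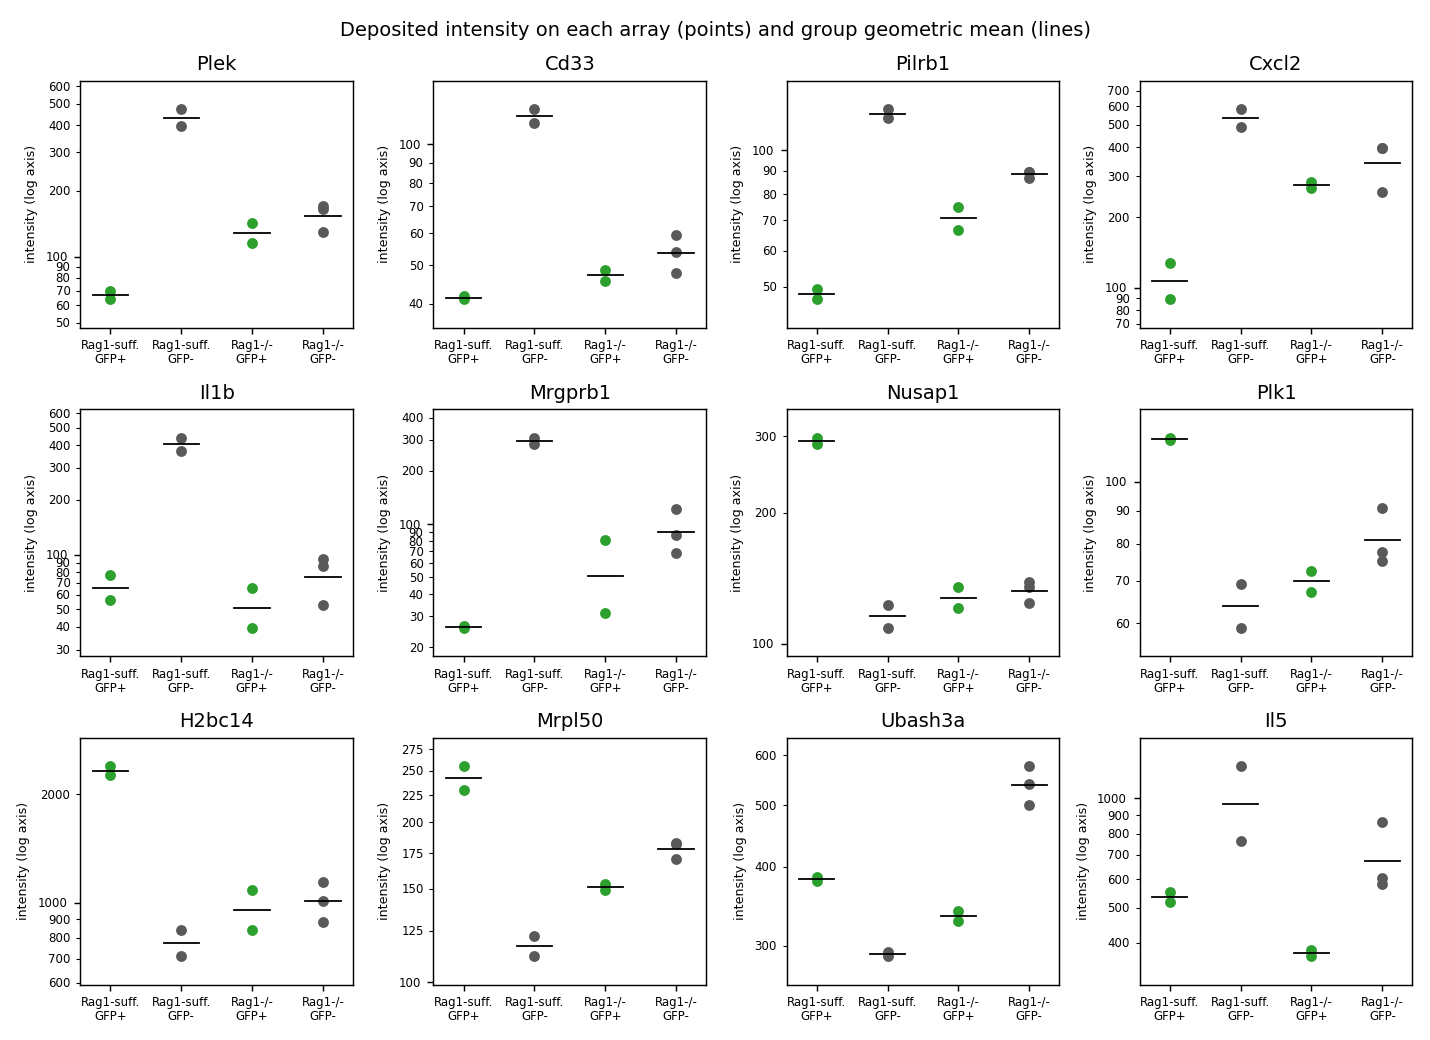
Deposited intensity of 12 genes on each array (points, log axis) in the 4 groups, GFP+ in green and GFP- in grey, with the geometric mean of each group as a line. Plek, Cd33 and Il1b peak in Rag1-sufficient GFP- cells, Nusap1, Plk1 and H2bc14 in Rag1-sufficient GFP+ cells and Ubash3a in Rag1-/- GFP- cells, whereas Il5 is lower in GFP+ cells of both genotypes.

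Several genes of inflammatory mediators had the same direction. Il1b, the cytokine IL-1 beta, was at 373 and 439 in Rag1-sufficient GFP- and 77.5 and 56.0 in GFP+ cells, and at 65.5 and 39.6 in Rag1-/- GFP+ and 53.1, 94.1 and 86.6 in Rag1-/- GFP- cells. Rag1-sufficient GFP- cells stood clear of all other arrays, and the interaction was 2.04 ± 0.42 (limma adjusted p 0.187). Cxcl2, a neutrophil-attracting chemokine, was at 127 and 89.2 in Rag1-sufficient GFP+ and 581 and 491 in GFP- cells, with Rag1-/- values of 283 and 267 in GFP+ and 397, 256 and 397 in GFP- cells. The Rag1-/- arrays thus lay between the Rag1-sufficient groups, and the interaction was 2.0 ± 0.34 (adjusted p 0.115). Ptgs2, the inducible cyclooxygenase, was low in Rag1-sufficient GFP+ cells alone, at 124 and 110 against 223 to 398 on the other arrays, with an interaction of 1.70 ± 0.31.

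Of 23 tested genes of IL-1, NF-kB and inflammatory mediators 7 were higher and 1 lower at an unadjusted p under 0.05, beside 3.53% and 9.63% of all genes, with a median of 0.16. The median was 0.28 without Rag1-/- GFP- replicate 3, 0.29 with 75th percentile scaling and 0.25 with quantile normalization. Of 26 immediate early genes, whose transcripts appear within minutes of stimulation, 7 were higher and none lower, with a median of 0.32. With 75th percentile scaling 10 were higher and the median was 0.45, and with quantile normalization 11 were higher and it was 0.51. Jun, an AP-1 subunit, was at 1079 and 1205 in Rag1-sufficient GFP- cells and at 458 and 494 in GFP+ cells, against 677 and 572 in Rag1-/- GFP+ and 759, 787 and 848 in Rag1-/- GFP- cells. Its interaction was 0.90 ± 0.21, and those of Fos and Fosb, its partners in AP-1, were 0.85 ± 0.20 and 0.90 ± 0.22. Nfkbiz, an atypical inhibitor of NF-kB, had 0.78 ± 0.22, and Egr1, a zinc finger factor, 1.09 ± 0.35. No gene of either list passed the adjusted threshold.

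Mast cell transcripts made the widest gate effects of the data in Rag1-sufficient mice. Of 15 tested mast cell genes 11 had a higher interaction at an unadjusted p under 0.05 and none a lower one, beside 3.53% and 9.63% of all genes. Positive interactions were found for 14, beside 48.2% of all genes. The median interaction was 1.20, from a median gate effect of -1.83 in Rag1-sufficient and -0.50 in Rag1-/- mice. Mrgprb1, a Mas-related receptor of mast cells, was at 284 and 308 in Rag1-sufficient GFP- and 25.8 and 26.2 in GFP+ cells. In Rag1-/- mice it was at 81.5 and 31.4 in GFP+ and 121, 68.7 and 87.0 in GFP- cells, and the GFP+ arrays of that genotype differed from each other. Its interaction was 2.65 ± 0.53 (limma adjusted p 0.174). Tpsb2, a mast cell tryptase, had 1.0 ± 0.22, and the transcription factor genes Gata2 and Mitf had 1.20 ± 0.27 and 0.78 ± 0.17. Kit, the stem cell factor receptor, was lowest in Rag1-sufficient GFP+ cells, at 482 and 583, and at 974 to 1600 on all other arrays, an interaction of 1.18 ± 0.30.

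The largest interaction of all 17445 probe sets was also the least certain of this group. Cpa3, the mast cell carboxypeptidase, was at 4932 and 4965 in Rag1-sufficient GFP- and 20.3 and 21.5 in GFP+ cells, and at 2686, 2146 and 2009 in Rag1-/- GFP- cells. The Rag1-/- GFP+ arrays had 2085 and 19.9, so that 1 of them resembled its GFP- group and the other did not. The interaction was 4.38 ± 2.18 with an unadjusted limma p of 0.0773. It was 1.06 without Rag1-/- GFP+ replicate 1 and 7.70 without replicate 2, where the adjusted p was 0.000192. Mcpt4, a chymase, had the same shape, with 878 and 14.1 in Rag1-/- GFP+ cells and an interaction of 3.64 ± 1.93, which was 0.71 without replicate 1 and 6.57 without replicate 2. The summed intensity of the mast cell markers was 11603 to 12346 in Rag1-sufficient GFP+, 21454 to 21724 in GFP-, 12199 to 15130 in Rag1-/- GFP+ and 15545 to 17270 in Rag1-/- GFP- cells. Srgn, the granule proteoglycan serglycin of many leukocytes, gave 9561 to 10868 of that sum. Without it, a choice made after its values were seen, the sum was 1311 to 1479, 11407 to 11646, 1851 to 5568 and 5562 to 7022 in these groups in the same order. The list's median was 0.91 without the first of these Rag1-/- GFP+ arrays and 1.44 without the other. The part of mast cells in the receptor and inflammatory genes above was not tested.

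**Figure D3:**
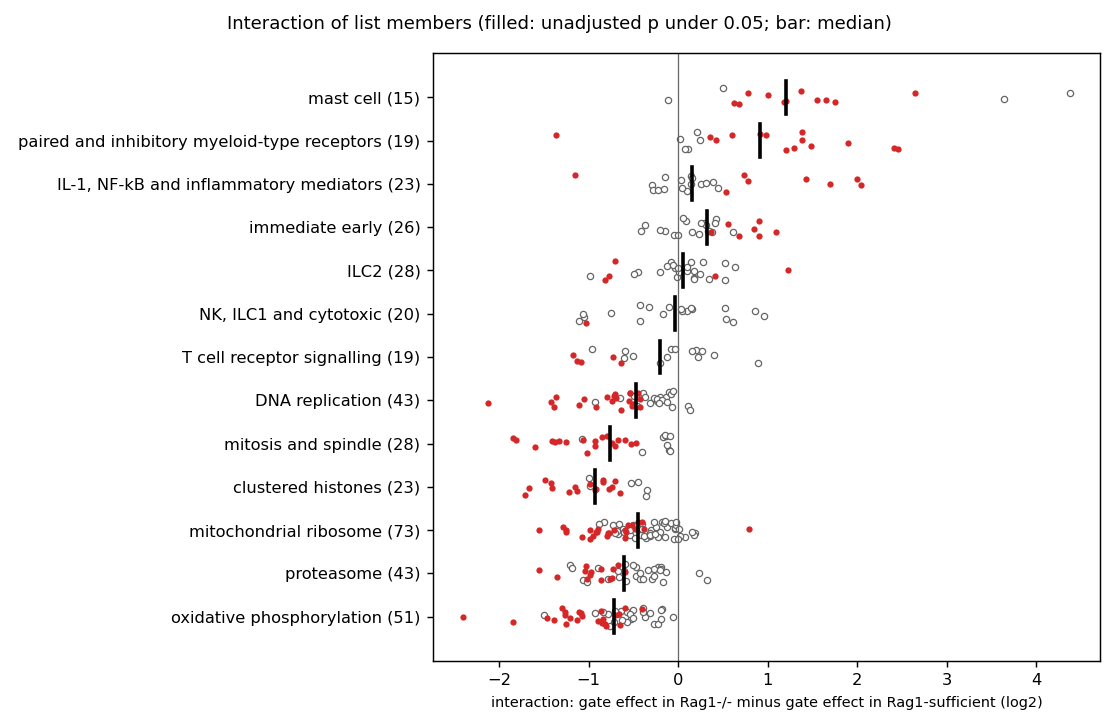
Interaction (horizontal axis, log2) of each tested gene of 13 lists, with the number of genes beside the list name, the median as a bar and genes with an unadjusted p under 0.05 filled. The median is 1.20 for mast cell genes and 0.92 for paired receptors, near 0 for ILC2 and NK genes, and -0.93 for clustered histones.

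Among named genes, the leading negative interactions were mostly of cell division genes that were high in Rag1-sufficient GFP+ cells. Of the 32 probe sets that shared the smallest adjusted p, 19 (59.4%, against 13.6% of all tested) had no symbol or several. Those were not read as genes. Nusap1, a microtubule-binding protein of the mitotic spindle, was at 287 and 297 in Rag1-sufficient GFP+ cells, 123 and 109 in GFP- cells, 121 and 135 in Rag1-/- GFP+ cells and 139, 124 and 135 in Rag1-/- GFP- cells. Only Rag1-sufficient GFP+ cells stood apart. The gate effect was 1.33 ± 0.12 in Rag1-sufficient and -0.05 ± 0.11 in Rag1-/- mice, and the interaction was -1.38 ± 0.16 (limma adjusted p 0.0723). Plk1, the polo-like kinase that drives entry into mitosis, was at 116 and 117 in that group and between 59.1 and 90.8 on the other arrays, an interaction of -1.06 ± 0.16. Mad2l1, a spindle checkpoint protein, was at 351 and 455 against 118 to 235 (-1.81 ± 0.30), and Cdca3, a trigger of mitotic entry, at 127 and 133 against 77.0 to 91.3 (-0.79 ± 0.13). Kif18b, a kinesin that shortens astral microtubules, had -0.74 ± 0.12.

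All 28 tested mitosis and spindle genes had a negative interaction, and 19 had an unadjusted p under 0.05, beside 51.8% and 9.63% of all genes. Their median was -0.76, from median gate effects of 0.66 and -0.05. An exception by size, picked after its value was seen, was Mki67, the proliferation antigen: it was listed at 175 on several arrays of 3 groups, and its interaction was -0.13 ± 0.54. Of 43 DNA replication genes 21 were lower and none higher, with a median of -0.47; 11 were lower without Rag1-/- GFP+ replicate 1 or without Rag1-sufficient GFP- replicate 2, and 13 without either Rag1-sufficient GFP+ array. Chaf1b, a chromatin assembly factor subunit, was at 128 and 134 in Rag1-sufficient GFP+, 85.4 and 83.2 in GFP-, 73.7 and 81.1 in Rag1-/- GFP+ and 108, 121 and 97.2 in Rag1-/- GFP- cells. Every GFP+ array was above every GFP- array in Rag1-sufficient mice and below in Rag1-/- mice, and the interaction was -1.11 ± 0.16. Rfc4, a subunit of the clamp loader, was at 377 and 348 in Rag1-sufficient GFP+ cells and at 91.5 to 277 elsewhere (-2.12 ± 0.37). Asf1b, a histone chaperone, had -1.36 ± 0.26, and Prim2, a primase subunit, -1.39 ± 0.34. Mcm3, a helicase subunit, had -0.74 ± 0.19, and there Rag1-/- GFP+ cells were the group apart, at 80.1 and 91.4.

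Clustered histone genes, which are transcribed in S phase, lay on the same side. All 23 tested had a negative interaction, with a median of -0.93, and 17 had an unadjusted p under 0.05, beside 51.8% and 9.63% of all genes. H2bc14 was at 2392 and 2270 in Rag1-sufficient GFP+, 840 and 711 in GFP-, 841 and 1083 in Rag1-/- GFP+ and 1014, 1144 and 887 in Rag1-/- GFP- cells. Rag1-sufficient GFP+ cells were above all other arrays, and the interaction was -1.67 ± 0.25 (limma adjusted p 0.0723). H2ac4 was at 182 and 156 in that group and at 59.2 to 102 elsewhere (-1.71 ± 0.22). H2bc3 had -1.49 ± 0.23 and H2bc1 -1.22 ± 0.21. These genes are near-identical copies, so a probe set may read several of them. A further 16 probe sets named by several histone symbols all had negative interactions with an unadjusted p under 0.05, against 9.85% of all probe sets. Histone sets made up 10 of the 32 (31.2%) with the smallest adjusted p, against 39 of all 17445 tested (0.224%). As they may share signal, these are not 10 separate results.

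Promoters of 3 of these genes are shown because mitosis and histone genes shared their peak in Rag1-sufficient GFP+ cells. These 3 were chosen because their windows hold both of the motifs searched for, which are known from cell cycle promoters. Each runs from 250 bases before to 50 after the start given by RefSeq on GRCm38.p6, 5′ to 3′ on the strand of the gene. Capitals mark TTTGAA, the core of the cell cycle homology element, and CCAAT, the box bound by NF-Y, on either strand (TTCAAA and ATTGG). The motifs do not overlap each other. Plk1 lies at chr7:122159185-122159484, Cdca3 at chr6:124829926-124830225 and H2bc14 at chr13:21721794-21722093, all on the plus strand.
Plk1: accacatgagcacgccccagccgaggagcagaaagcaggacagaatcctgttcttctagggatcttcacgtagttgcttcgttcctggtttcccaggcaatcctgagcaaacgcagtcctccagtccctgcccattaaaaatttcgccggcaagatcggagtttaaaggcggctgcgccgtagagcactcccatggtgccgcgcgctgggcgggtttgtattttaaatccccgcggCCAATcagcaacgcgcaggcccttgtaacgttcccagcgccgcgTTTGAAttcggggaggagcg
Cdca3: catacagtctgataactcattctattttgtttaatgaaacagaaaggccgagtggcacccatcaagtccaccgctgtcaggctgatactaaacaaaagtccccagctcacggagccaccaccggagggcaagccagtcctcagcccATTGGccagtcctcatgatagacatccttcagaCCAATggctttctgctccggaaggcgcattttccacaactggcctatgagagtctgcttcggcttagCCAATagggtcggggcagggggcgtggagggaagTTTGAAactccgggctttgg
H2bc14: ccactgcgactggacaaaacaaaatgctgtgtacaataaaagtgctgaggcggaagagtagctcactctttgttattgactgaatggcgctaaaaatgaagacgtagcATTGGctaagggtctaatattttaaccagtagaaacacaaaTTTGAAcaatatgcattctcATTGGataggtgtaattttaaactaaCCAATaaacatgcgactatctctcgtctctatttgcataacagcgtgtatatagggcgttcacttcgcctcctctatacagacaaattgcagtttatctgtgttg

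Plk1 and Cdca3 hold 1 TTTGAA each, near the start site, with 1 CCAAT box in Plk1 and 3 in Cdca3. H2bc14 holds 1 TTTGAA and 3 CCAAT boxes. Promoters were matched for 24 of the 28 mitosis genes and 21 of the 23 histone genes. TTTGAA was in 18 of the 24 (75%) and in 11 of the 21 (52.4%), against 18.1% of all 27025 promoters of the same length. CCAAT was in 20 of the 24 (83.3%) and 17 of the 21 (81%), against 37.9%, and both motifs in 18 of the 24 (75%) and 10 of the 21 (47.6%), against 7.12%. The window of Nusap1, the mitosis gene with the smallest p, held neither, and that of H2ac4 held 2 CCAAT boxes and no TTTGAA. Both were searched and are not printed. The motif shares describe the lists and use no interaction value. A match is a run of letters and was not shown to be a site.

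Genes of the mitochondria and the proteasome also had negative interactions, with a wider spread between arrays. All 51 tested oxidative phosphorylation genes were negative and 25 had an unadjusted p under 0.05, beside 51.8% and 9.63% of all genes. The median was -0.72, from median gate effects of 0.53 in Rag1-sufficient and -0.34 in Rag1-/- mice. The count moved with single arrays: it was 8 without Rag1-sufficient GFP+ replicate 1 or Rag1-/- GFP+ replicate 1, and 13 and 12 without Rag1-sufficient GFP- replicate 1 and 2. The median stayed between -0.92 and -0.54. Ndufb11, a complex I subunit, was at 1568 and 1350 in Rag1-sufficient GFP+, 612 and 530 in GFP-, 576 and 1101 in Rag1-/- GFP+ and 853, 1305 and 1251 in Rag1-/- GFP- cells, and its interaction was -1.84 ± 0.43. Cycs, cytochrome c, was at 5802 and 5603 in Rag1-sufficient GFP+ cells and at 3836 to 4825 elsewhere (-0.65 ± 0.15). Ndufb6, another complex I subunit, had the most negative interaction of all probe sets, -2.40 ± 0.74, and its 3 Rag1-/- GFP- arrays ranged from 307 to 984.

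Mrpl50, a protein of the large mitochondrial ribosomal subunit, was among the 32 probe sets with the smallest adjusted p. It was at 255 and 230 in Rag1-sufficient GFP+, 112 and 122 in GFP-, 149 and 153 in Rag1-/- GFP+ and 171, 182 and 183 in Rag1-/- GFP- cells. The gate effect was 1.04 in Rag1-sufficient mice and -0.24 in Rag1-/- mice, opposite for every pair of arrays, and the interaction was -1.29 ± 0.16. Of 73 mitochondrial ribosome genes 24 were lower and 1 higher, with a median of -0.45; 8 were lower without Rag1-sufficient GFP+ replicate 1, 10 without Rag1-/- GFP+ replicate 1, and 15 and 12 without Rag1-sufficient GFP- replicate 1 and 2. The higher one was Mrps10 (0.79 ± 0.19), which was at 81.1 and 75.5 in Rag1-sufficient GFP- and 51.9 to 54.3 in Rag1-/- GFP- cells. Of 43 proteasome genes 14 were lower and none higher, with a median of -0.61; 7 were lower without Rag1-sufficient GFP- replicate 2 and 8 without Rag1-/- GFP+ replicate 1. The proteasome median was -0.40 without that array and -0.38 without Rag1-/- GFP- replicate 3. Psmb3, a core subunit, was at 6098 and 5644 in Rag1-sufficient GFP+ cells and at 3546 to 5304 elsewhere (-0.86 ± 0.19), and Psmb5, the catalytic subunit with chymotrypsin-like activity, had -1.55 ± 0.40. These lists moved with the level of the whole array: the 75th percentile was lowest on Rag1-/- GFP+ replicate 1, at 175, and highest on Rag1-/- GFP- replicate 3, at 198, where the median deviation of oxidative phosphorylation genes from their means was -0.30 and 0.49. After scaling to that percentile the median interactions were -0.58 for oxidative phosphorylation, -0.48 for the proteasome and -0.32 for the mitochondrial ribosome, against 0.12 over all probe sets. The part of the array level in these lists was otherwise not tested.

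Of 15 tested glycolysis genes 5 were lower and none higher, with a median of -0.34 and median gate effects of -0.04 in Rag1-sufficient and -0.37 in Rag1-/- mice; 3 were lower without Rag1-sufficient GFP+ replicate 1, either Rag1-sufficient GFP- array, either Rag1-/- GFP+ array or Rag1-/- GFP- replicate 3. With 75th percentile scaling 3 were lower and 1 higher, with a median of -0.21, and with quantile normalization 2 and 1, with a median of -0.17. Pgk1, phosphoglycerate kinase, was at 1257, 1642 and 1977 in Rag1-/- GFP- and 991 and 1084 in GFP+ cells, and at 1207 and 1003 in Rag1-sufficient GFP+ and 767 and 669 in GFP- cells. Its gate effects were 0.62 and -0.62, opposite for every array pair, and the interaction was -1.24 ± 0.30. Rag1-/- GFP- cells stood apart in it, whereas Rag1-sufficient GFP- cells were the lowest for Pgam1, phosphoglycerate mutase (-0.63 ± 0.18), and no group stood apart for Tpi1, triosephosphate isomerase (-0.94 ± 0.29), and Hk1, a hexokinase (-0.68 ± 0.28). Mpc1, the mitochondrial pyruvate carrier, was also lowest in Rag1-sufficient GFP- cells, at 951 and 884 against 1287 to 1812 on all other arrays (-1.13 ± 0.20). Of 20 genes of cholesterol synthesis and uptake 5 were lower and none higher, among them Nsdhl (-1.01 ± 0.28) and the squalene synthase gene Fdft1 (-0.99 ± 0.32, and -0.65 without Rag1-/- GFP+ replicate 1); 2 were lower without Rag1-sufficient GFP+ replicate 2 or either Rag1-sufficient GFP- array, and 3 without Rag1-sufficient GFP+ replicate 1 or Rag1-/- GFP+ replicate 1.

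**Figure D4:**
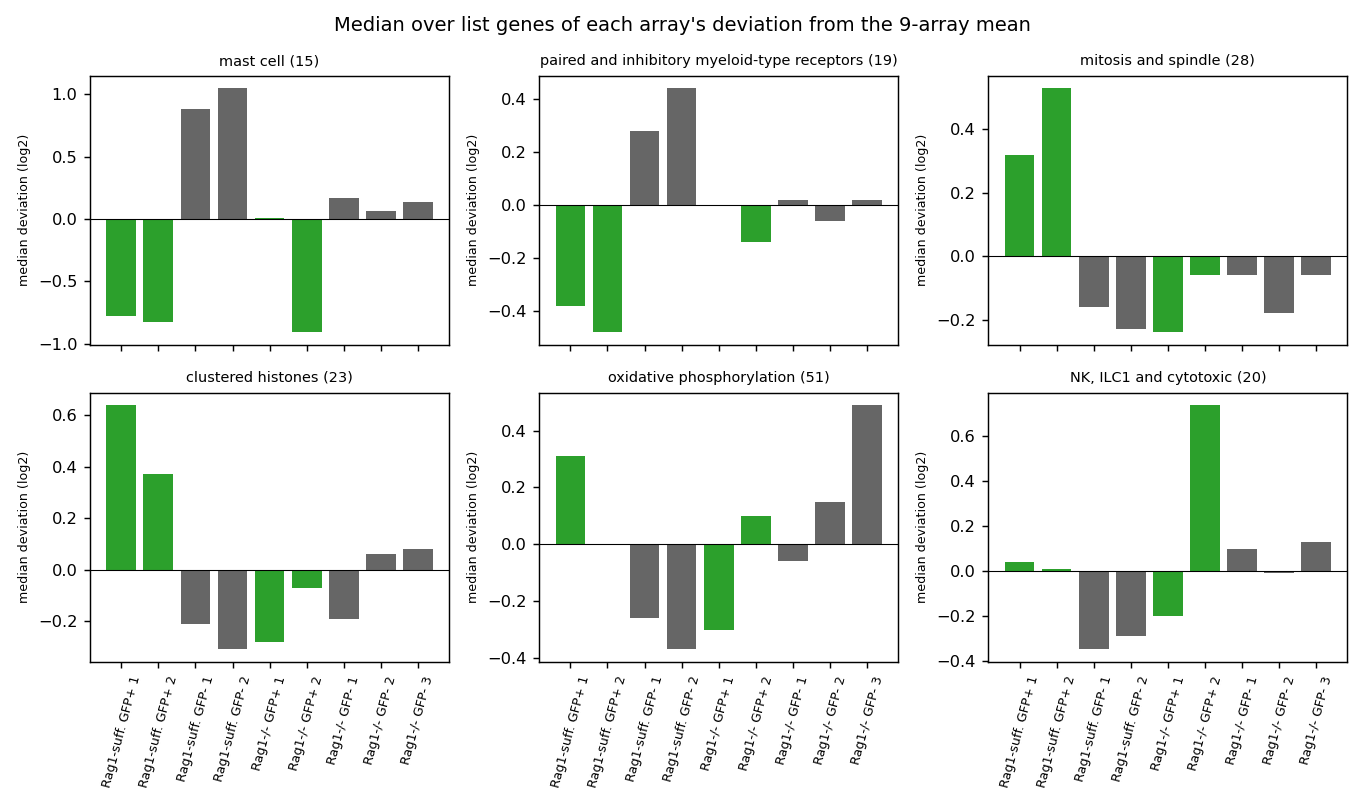
Median over the genes of 6 lists of the deviation of each array from the gene's mean over 9 arrays (log2), GFP+ arrays in green and GFP- arrays in grey. Mast cell genes differ between the Rag1-/- GFP+ arrays (0.01 and -0.91), as do NK genes (-0.20 and 0.74), while mitosis genes are above 0 on the Rag1-sufficient GFP+ arrays alone.

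In a minority of genes a Rag1-/- group stood apart. GFP- cells of these mice were higher for 92 (3.87%) and lower for 60 (2.52%) of the 2378 probe sets, against 2.71% and 1.59% of all tested. Ubash3a, a phosphatase-like inhibitor of T cell receptor signalling, was at 501, 576 and 540 in Rag1-/- GFP- cells, 328 and 341 in Rag1-/- GFP+ cells, 386 and 380 in Rag1-sufficient GFP+ cells and 293 and 289 in Rag1-sufficient GFP- cells. The gate effects were 0.39 and -0.68, opposite for every array pair, which held for 853 probe sets in all (4.89%). The interaction was -1.08 ± 0.19 (limma adjusted p 0.120). Dhx58, an RNA sensor related to RIG-I, was at 62.5, 58.3 and 58.7 in Rag1-/- GFP- and 43.1 and 45.9 in GFP+ cells, against 56.6 and 55.0 and 44.2 and 47.7 in Rag1-sufficient GFP+ and GFP- cells (-0.69 ± 0.11). Gnl3l, a nucleolar GTPase, and Tubg1, the gamma-tubulin of microtubule-organizing centres, also peaked in Rag1-/- GFP- cells, with -0.91 ± 0.19 and -0.77 ± 0.20. Itgae, the integrin chain CD103 that binds E-cadherin, was at 1645, 1960 and 2110 in Rag1-/- GFP- cells and at 1072 to 1590 on the other arrays (-0.66 ± 0.22).

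The GFP+ cells of Rag1-/- mice were the group apart in fewer of the 2378 probe sets. There were 20 (0.841%) on the higher and 54 (2.27%) on the lower side, against 0.705% and 1.42% of all tested. The share on the higher side was thus near its background. Map1b, a microtubule-associated protein of neurons, was at 667 and 717 there and at 274 to 628 elsewhere (1.08 ± 0.34), and Ptger3, a prostaglandin E2 receptor, at 79.0 and 113 against 49.5 to 72.7 (0.69 ± 0.21, and 0.44 without Rag1-/- GFP+ replicate 2). Uck2, a uridine-cytidine kinase, was lowest there, at 1015 and 1039 against 1110 to 1446 (-0.69 ± 0.17). Among named genes with gate effects past 0.5 in opposite directions and a negative interaction, Cyb5a, cytochrome b5, had the smallest p. It was at 1334 and 1186 in Rag1-sufficient GFP+ and 619 and 660 in GFP- cells, and at 684 and 1050 in Rag1-/- GFP+ and 1054, 1186 and 1437 in GFP- cells. Its gate effects were 0.98 and -0.52 (interaction -1.50 ± 0.31). Ndufb6, with gate effects of 1.15 and -1.25, and Psmb5, with 0.81 and -0.74, had larger interactions than it. In the other direction the heat shock protein gene Hspb1 had gate effects of -0.74 and 0.57 (1.31 ± 0.43), and the histone methyltransferase genes Kmt2a and Kmt2d had interactions of 1.36 ± 0.57 and 1.26 ± 0.50, although a dimmer probe set of Kmt2d gave 0.25.

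T cell and cytotoxic genes gave no stable direction. Their counts stand beside 3.53% of all genes higher and 9.63% lower. Of 19 tested genes of T cell receptor signalling 5 were lower and none higher, with a median of -0.20; without Rag1-/- GFP+ replicate 1 the count was 2 lower and 3 higher and the median 0.03, and without replicate 2 it was 8 lower and 3 higher. The count was also 2 without Rag1-sufficient GFP+ replicate 1 or GFP- replicate 2, and 3 without Rag1-sufficient GFP- replicate 1 or Rag1-/- GFP- replicate 3. Skap1, a T cell adaptor, had -1.13 ± 0.33, and the kinase gene Zap70 -0.64 ± 0.22. Cd3g, a chain of the CD3 complex, was at 1767 and 1408 in Rag1-sufficient GFP+, 891 and 932 in GFP-, 1831 and 3512 in Rag1-/- GFP+ and 2638, 2873 and 4859 in Rag1-/- GFP- cells (-1.18 ± 0.47, and -0.71 without Rag1-/- GFP+ replicate 1). Its partner Cd3e had 0.89 ± 0.53 with overlapping array pairs, and 1.58 and 0.21 without Rag1-/- GFP+ replicate 1 and 2, so the chains differed in sign. Both were measured although CD3 on the surface was gated out and Rag1-/- mice make no T cells.

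Of 20 tested NK, ILC1 and cytotoxic genes 1 was lower and none higher, with a median of -0.04, and Rag1-/- GFP+ arrays decide that value: without replicate 1 the median was 0.27 with 7 genes higher, and without replicate 2 it was -0.55 with 8 lower. The gene past an unadjusted p of 0.05 was Cd226 (-1.03 ± 0.43), an activating receptor for nectin-like ligands, which had -0.50 without replicate 1 and -1.57 without replicate 2. Ifng, interferon gamma, was at 488 and 375 in Rag1-sufficient GFP+ and 114 and 237 in GFP- cells, at 95.4 and 553 in Rag1-/- GFP+ cells and at 149, 196 and 218 in Rag1-/- GFP- cells. The Rag1-/- GFP+ arrays spanned the whole range, and the interaction was -1.06 ± 0.93, reaching 0.20 without replicate 1 and -2.32 without replicate 2. Tbx21, the transcription factor T-bet, had -0.33 ± 0.44, which became 0.28 without replicate 1 and -0.95 without replicate 2. Nkg7 had -1.05 ± 0.57, which became -0.23 without replicate 1 and -1.88 without replicate 2, and Gzmc, a granzyme, had 0.86 ± 0.41 (1.18 and 0.54 without them).

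Of 28 tested ILC2 genes 2 were higher (7.14%) and 3 lower (10.7%) at an unadjusted p under 0.05, beside 3.53% and 9.63% of all genes. Their median was 0.06, and 0.19 with 75th percentile scaling and 0.24 with quantile normalization, with 4 higher without Rag1-/- GFP+ replicate 2 or GFP- replicate 1. The number lower was 0 without Rag1-sufficient GFP- replicate 2 and 1 without replicate 1 of Rag1-sufficient GFP+, Rag1-sufficient GFP- or Rag1-/- GFP+ cells or replicate 3 of Rag1-/- GFP- cells. Csf2rb and Hes1, a Notch target (0.41 ± 0.11), were the higher ones. Il13 was at 2145 and 1946 in Rag1-sufficient GFP+, 1551 and 1284 in GFP-, 1224 and 1824 in Rag1-/- GFP+ and 1763, 1812 and 1705 in Rag1-/- GFP- cells, an interaction of -0.77 ± 0.26, and -0.48 without Rag1-/- GFP+ replicate 1. Il9r, the IL-9 receptor, had -0.71 ± 0.28, and Gata3, the factor that defines ILC2, 0.63 ± 0.29 with overlapping array pairs and 0.33 without that array. Il5 was lower in GFP+ cells of both genotypes: 552 and 518 against 1225 and 763 in Rag1-sufficient mice, and 368 and 382 against 604, 580 and 863 in Rag1-/- mice. Its gate effects were -0.85 ± 0.26 and -0.84 ± 0.24, and the interaction of 0.01 had a 95% interval from -0.80 to 0.83. Klrg1, an inhibitory receptor of mature ILC2, had gate effects of -1.11 and -1.17 and an interaction interval from -0.89 to 0.78. These intervals include differences of more than 0.7 in either direction, so the data do not show that the gate effects were alike. Id2 (-0.04 ± 0.11), needed by all ILCs, was the most precise of the panel, with an interval from -0.29 to 0.22, and Il7r had 0.10 ± 0.25 and Rora 0.35 ± 0.24 (0.20 without Rag1-sufficient GFP+ replicate 1).

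The lists in this paragraph stand beside 3.53% of all genes higher and 9.63% lower. Of 14 ILC3 and type 17 genes 1, Kit, was higher and none lower. Il17a (0.14 ± 0.22) and Il23r (0.88 ± 0.45, and 0.46 without Rag1-sufficient GFP+ replicate 2) had overlapping array pairs. Of 24 genes of migration, egress and residence 1 was higher and 5 lower, with a median of -0.14, which was -0.28 without Rag1-/- GFP+ replicate 2 and -0.01 with 75th percentile scaling. The number lower was 1 without Rag1-sufficient GFP- replicate 2 or Rag1-/- GFP+ replicate 1, 2 and 3 without Rag1-sufficient GFP+ replicate 1 and 2, 3 without Rag1-sufficient GFP- replicate 1 and 8 without Rag1-/- GFP+ replicate 2. S1pr1, the receptor that leads lymphocytes out of tissue, was at 175 and 255 in Rag1-sufficient GFP+ and 118 and 114 in GFP- cells, and at 72.5 and 95.8 and 73.1, 76.4 and 73.7 in Rag1-/- GFP+ and GFP- cells (-0.70 ± 0.25, and -0.43 without Rag1-sufficient GFP+ replicate 2). Ccr4, a skin-homing chemokine receptor, was at 585 and 602 in Rag1-sufficient GFP+ cells and at 178 to 353 elsewhere (-0.90 ± 0.31), and Cxcr4 had -0.66 ± 0.23. Itga4, the alpha 4 integrin chain, was the higher one, at 274 and 223 in Rag1-sufficient GFP- cells and 39.3 to 134 elsewhere (2.12 ± 0.50). Of 13 genes of MHC class II and costimulation 3 were lower and none higher: H2-Oa (-0.77 ± 0.17) and H2-DMa (-0.64 ± 0.24, and -0.40 without Rag1-/- GFP+ replicate 1), both regulators of peptide loading, and the costimulatory ligand gene Cd80 (-1.31 ± 0.50), which was at 550 and 557 in Rag1-sufficient GFP+ cells and 78.9 to 209 elsewhere. Cd80 had -0.61 without Rag1-/- GFP+ replicate 1 and -2.01 without replicate 2. A dimmer probe set of Cd80 gave -0.24. The number lower was 1 without Rag1-sufficient GFP+ replicate 1 or GFP- replicate 2. The class II chain genes H2-Ab1 and H2-Eb1 had 0.34 ± 0.33 (0.07 without Rag1-/- GFP+ replicate 2) and 0.64 ± 0.31.

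Markers of skin cells outside the sort varied within groups. None of 17 tested keratinocyte genes had an unadjusted p under 0.05, and their median of 0.24 became -0.09 without Rag1-sufficient GFP- replicate 2 and 0.60, with 5 genes higher, without replicate 1. Krt14, a basal keratin, was at 375 and 782 on these arrays. Of 15 fibroblast genes 2 were higher, and the 1 that was lower was Thy1 (-0.57), which ILCs carry too and which was at 3121 to 5227 on every array. Of 12 endothelial genes 2 were higher and none lower. The counts of both lists moved when single arrays were left out. Their median interactions then ranged from 0.13 to 0.41 for fibroblast and from 0.09 to 0.28 for endothelial genes. Scd1, a fatty acid desaturase of sebocytes, had the largest positive interaction among probe sets with an unadjusted limma p under 0.05, 3.43 ± 0.90, and was at 1398 and 3798 in Rag1-sufficient GFP- cells, 99.2 and 463 in GFP+ cells and 112 to 158 on the Rag1-/- arrays. Its arrays differed within both Rag1-sufficient groups in the way those of Krt14 did in GFP- cells.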

How the data were processed

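Each of the 9 arrays measured total RNA of sorted skin ILCs. The deposited values are intensities per probe set, on a linear scale, in 24922 rows; per the submitters' processing notes MAS5 was used, and its settings and any step between arrays are not stated in any source used here. In 50% of probe sets at least 2 arrays hold exactly equal values, whose origin is not stated either. Array medians were close, at 74.1 to 77.6, whereas 75th percentiles ran from 175 to 198. The arrays were thus alike in the middle of their range and less so above it. Signal cannot be set against background here, and the number of arrays limits the precision.

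Log2(value + 1) was fitted with limma 3.58.1 in R 4.3.3 (4 group means, eBayes with an intensity trend, two-sided, Benjamini-Hochberg over all tested probe sets, threshold 0.05). A filter removed the dimmest 30% by mean (limit 41.6). A gene was read from its brightest probe set with 1 symbol, from GEO's platform annotation. The model was tested on simulated data with independent noise, the same SD in all groups and a shift in Rag1-/- GFP+ cells alone. These lacked the unequal spread, the ties and the differing Rag1-/- GFP+ arrays, so they do not test the model under those conditions.

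Members and lists were chosen with earlier results of these data known. Named genes were the 12 smallest p each way, up to 4 per list, the 6 largest each way, 6 with opposed gate effects each way, 5 per group standing apart, and a fixed panel; exceptions are marked. Alternatives were the offset, filter, scaling, weights, variance model, ties, block and each array left out. Same-numbered arrays had deviations correlated at 0.08, 0.03 and -0.24, and the main fit did not pair them. Whether same-numbered arrays share a mouse or a sort is not stated. Deviations within groups of 2 or 3 arrays cannot decide it. Flagging of single outlying arrays was not possible with groups of 2 or 3.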

Additional observations from a re-analysis of the deposited data

How the results depend on the processing

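Of the alternatives, an offset of 0.01 or 32, no filter, no intensity trend, robust eBayes and leaving out tied probe sets kept 0 calls. A single call, Plek, was made with the lowest 50% left out, with quantile normalization and with 75th percentile scaling (1 each), and 31 calls were made with array weights. With single arrays left out the count ranged from 0 to 500, the share with an unadjusted p under 0.05 from 7.41% to 24.7%, and the correlation of the gate effects from -0.25 to 0.17. With the replicate block the count was 0, the share 11.1% within genotypes and 9.66% across them, and the correlation of the gate effects 0.04 in both. Without Rag1-/- GFP+ replicate 2, the median interaction was 1.44 for mast cell, 0.79 for paired receptor, -0.87 for mitosis and -1.08 for histone genes. It was -0.91 for oxidative phosphorylation, -0.58 for DNA replication, -0.55 for NK and 0.27 for immediate early genes, against -0.01 over all probe sets. The cause of the change in calls was not tested. Some interactions changed sign. Klrg1 had 0.02 with an offset of 32, 0.07 with 75th percentile scaling, 0.08 with array weights, and 0.24 with either replicate block; Id2 had 0.20 with quantile normalization and 0.09 with 75th percentile scaling, and Ccr10 0.03 with the latter. With single arrays left out the ranges were -0.21 to 0.24 for Klrg1, -0.15 to 0.08 for Id2, -0.41 to 0.21 for Ccr10, -0.33 to 0.36 for Il5, -0.09 to 0.29 for Il7r, -0.06 to 0.35 for Il17a, -2.32 to 0.20 for Ifng, -0.95 to 0.28 for Tbx21, -0.63 to 0.37 for Mki67 and -0.09 to 0.96 for Krt14. The other genes named kept their sign under every alternative run.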

Other observations

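Interferon-stimulated genes gave no common direction: of 20 tested 3 were higher and 2 lower at an unadjusted p under 0.05 (limma, none past the adjusted threshold), with a median interaction of -0.03, which was 0.10 with 75th percentile scaling and -0.18 without Rag1-/- GFP+ replicate 2. Of 8 B and plasma cell genes 1 was lower and none higher, and of 3 basophil, eosinophil and neutrophil genes and 3 erythroid genes none had an unadjusted p under 0.05. Glipr1, a secreted CAP family protein, was at 2384 and 2154 in Rag1-sufficient GFP+ cells and at 658 to 1531 on the other arrays (interaction -1.99 ± 0.45). Vwa5a, a von Willebrand factor A domain protein, was at 67.7 and 53.6 in Rag1-sufficient GFP+ cells and 112 to 229 elsewhere (1.40 ± 0.24), and Plxdc2, a plexin domain protein, at 62.2 and 68.9 against 111 to 231 (1.54 ± 0.27).

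Among the largest interactions by size, Cyp2g1, a cytochrome P450, had values of 30.3 and 335 in Rag1-sufficient GFP+ and 269 and 1208 in GFP- cells and 29.4 to 39.8 on the Rag1-/- arrays, and the interaction of 2.51 ± 1.34 had an unadjusted limma p of 0.0963. Mmrn1, an endothelial and platelet matrix protein, was at 247 and 139 in Rag1-sufficient GFP- and 50.9 and 42.5 in GFP+ cells, and at 23.1 and 138 in Rag1-/- GFP+ cells (2.53 ± 0.98). Its interaction was 3.79 without Rag1-/- GFP+ replicate 1 and 1.26 without replicate 2, and that of Cyp2g1 was 0.79 without Rag1-sufficient GFP+ replicate 1 and 4.22 without replicate 2.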
